A study of Xiphophorus maculatus x Xiphophorus hellerii with 32 samples.

Results

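The transcripts described here are those whose reads made up a far larger share of the library in melanoma than in skin. A transcript was a member when its mean over 16 melanomas was at least 10 CPM (counts per 1000000 counts of the library) and at least 8 times its mean over 16 skins. Of 20469 rows with a platyfish transcript identifier, 9749 reached that level in melanoma and 132 met both limits, or 0.645% of the identifier rows. Members were thus chosen by the mean CPM of the 2 tissues, and the difference between melanoma and skin is described below without a test. The same limits with the tissues exchanged hold for 59 rows, called the skin-type rows below.

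The fish were 9-month-old first-generation backcross (BC1) hybrids from the Gordon-Kosswig cross, in which Xiphophorus maculatus, a platyfish, is mated with Xiphophorus hellerii, a swordtail, and all of them bore melanoma. Both tissues came from these hybrids, so the skins carry the hybrid genome too and are not from fish without tumors. RNA was sequenced from 16 skins and 16 spontaneous melanomas, and 14 fish gave both tissues. Titles name each fish by a number and a letter; among the 14 paired fish, 3 share the number 11935, 7 share 11949, 1 has 11960 and 3 share 11963, and the sources used here do not say what the number stands for. The skins of 11949q and 11960b and the melanoma of 11949d had no partner library, and 1 melanoma column matched no melanoma title and is called the unmatched melanoma. Its column name shortens to the fish name 11960b, whereas the melanoma title left over reads 11969b, so it may or may not be the partner of the 11960b skin.

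In this cross the tumors arise from macromelanophores, large black pigment cells. They are driven by Xmrk, an oncogenic, constitutively active relative of the epidermal growth factor receptor, which the hybrids inherit from the platyfish parent. Backcrossing to the swordtail can remove the platyfish regulatory locus that keeps Xmrk in check, and the pigment cells then grow without restraint. Xmrk has a row of its own under its symbol, so it is no member and serves as the reference row. The other identifiers are not paired with gene names in the files, so members are called by identifier and no function is given to them. For the same reason the labelled tissues could be checked against Xmrk but not against markers of pigment cells, skin or other cell types. In bulk tissue, fewer cells of a type and less RNA per cell cannot be told apart.

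Total counts ran from 4239036 to 6673975 in skins and from 2578877 to 6977222 in melanomas. At these depths a count of 0 allows up to 3 counts, which is 0.430 to 1.16 CPM depending on the library; this covers counting error only. Xmrk ran from 139 to 1343 CPM in melanomas (median 573, mean 580 ± 282, SD, n = 16) and from 19.0 to 119 CPM in skins (median 63.4, mean 64.3 ± 26.7, SD, n = 16). No melanoma overlapped the skins, and Xmrk was higher in the melanoma of 14 of 14 fish. Its ratio of means was 9.02. Of the members, 113 lay above that value. The rule sets their floor at 8, just below it, so nothing is read from this count.

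The members as a set took 3.89% ± 1.80 of the counts in melanomas (SD, n = 16, range 0.586% to 6.98%) and 0.127% ± 0.0424 in skins (SD, n = 16, range 0.0750% to 0.237%). Their melanoma means ran from 10.2 to 9419 CPM with a median of 56.3 CPM, and their skin means from 0.0303 to 97.9 CPM with a median of 3.30 CPM. Only 10 members averaged at least 1000 CPM in melanoma, 49 averaged at least 100 CPM and 83 lay between 10 and 100 CPM. These 10 members held 69.2% of the summed melanoma level, and the most abundant one alone held 24.2%. CPM is not divided by transcript length, which the files do not give, so a higher CPM here means more reads and not more molecules.

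**Figure D1:**
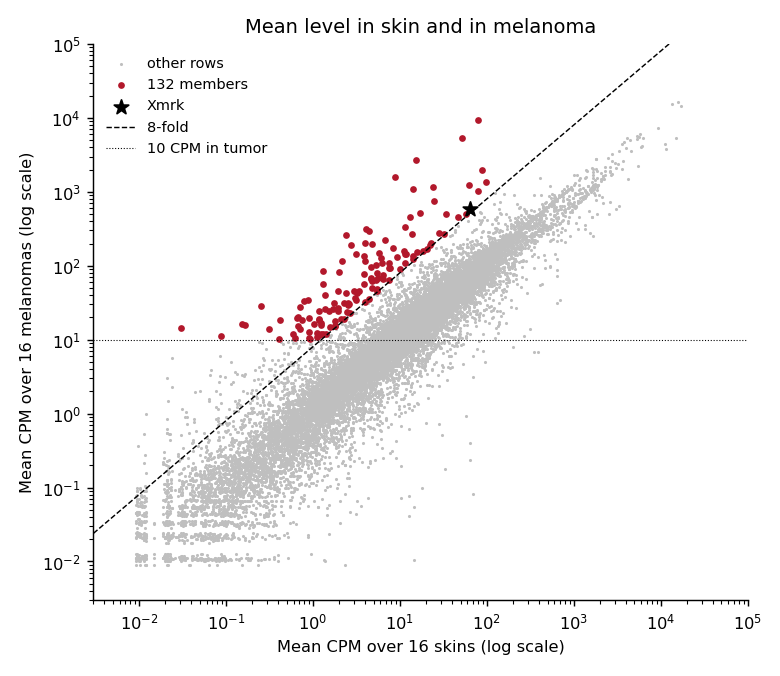
Mean CPM over 16 skins (x axis, log scale) against mean CPM over 16 melanomas (y axis, log scale) for every row with a mean above 0 in both tissues. Members (red) lie above the 8-fold line and the line at 10 CPM; Xmrk (star) sits just above the 8-fold line, at 64.3 and 580 CPM.

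The most abundant member, ENSXMAT00000003338, ran from 945 to 21279 CPM in melanomas (median 8886) and from 4.01 to 339 CPM in skins (median 53.7). Its lowest melanoma, that of 11935d, was above the highest skin, that of 11960a. Means were 9419 ± 5790 and 78.5 ± 84.3 CPM (SD, n = 16 each), a ratio of 120. ENSXMAT00000004937 came next in CPM, with 272 to 13825 CPM in melanomas (median 5337) and 6.61 to 287 CPM in skins (median 30.3). Here 15 of the 16 melanomas exceeded the highest skin, again 11960a, and the exception was 11935d. ENSXMAT00000012105 ran from 126 to 6305 CPM in melanomas (median 2196) and from 2.83 to 50.3 CPM in skins (median 11.2), with no overlap.

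ENSXMAT00000004603 combined a high level with one of the largest ratios. It ran from 105 to 3781 CPM in melanomas (median 1310) and from 0.472 to 39.6 CPM in skins (median 5.16), and the means, 1606 ± 1130 and 8.76 ± 9.72 CPM (SD, n = 16 each), stood 183-fold apart. The other members among the 8 most abundant started from higher skin levels. ENSXMAT00000008715 averaged 1964 ± 1272 CPM in melanoma and 87.7 ± 53.6 CPM in skin (SD, n = 16 each), a ratio of 22.4. ENSXMAT00000011436 had the highest skin mean of all members, 97.9 ± 32.2 CPM (SD, n = 16), beside 1362 ± 724 CPM in melanoma (SD, n = 16), a ratio of 13.9. ENSXMAT00000005183 ran from 254 to 2697 CPM in melanomas and from 24.7 to 121 CPM in skins, a ratio of means of 19.9. ENSXMAT00000011250 averaged 1152 ± 660 CPM in melanoma and 24.2 ± 18.1 CPM in skin (SD, n = 16 each), a ratio of 47.5. For each of the 8, the lowest melanoma was 11935d.

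The ratio of mean melanoma to mean skin CPM had a median of 14.8 over the members. It lay between 8 and 16 for 71 members, between 16 and 64 for 46, and at 64 or more for 15, of which 9 reached 100. Of these 9, 5 had more than 200 counts over the 16 skins; besides 4 of the most abundant members named above, these include ENSXMAT00000017769, with medians of 270 CPM in melanomas and 1.60 CPM in skins and a ratio of 109. The other 4 rest on few skin counts. ENSXMAT00000017153, with the highest ratio, 478, held 3 counts over all skins and none in 13 of them; its ratio of pooled CPM was 454 with an exact 95% counting interval from 155 to 2203. ENSXMAT00000016378, ENSXMAT00000016375 and ENSXMAT00000002947 held 8, 14 and 22 skin counts, and the intervals of their pooled ratios began at 67.3, 67.2 and 78.6. These intervals cover counting error only and leave out the spread between fish. For ENSXMAT00000017153 the melanomas alone ran from 0 to 59.2 CPM. Over all members, 23 held under 100 skin counts in all, 34 had at least 1 skin at 0 and 7 had at least 1 melanoma at 0.

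Just inside the 8-fold limit were ENSXMAT00000014004 at 8.03, ENSXMAT00000013930 at 8.13 and ENSXMAT00000012112 at 8.22. Just outside were ENSXMAT00000012595 at 7.98, ENSXMAT00000013746 at 7.91 and ENSXMAT00000019314 at 7.91, so nothing in the ratios separates the rows on either side. Scaling by the trimmed mean of M-values (TMM) moves all log2 differences between melanoma and skin by -0.15, and 112 of the 132 members then met the limits.

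For 42 members every melanoma lay above every skin. Among all 9749 rows with a melanoma mean of at least 10 CPM that was so for 58, or 0.595%; since the rule used this contrast, nothing is read from the comparison. For 64 members all but 1 or 2 melanomas exceeded the highest skin, and for 2 members under 8 melanomas did. By CPM, 113 members were higher in the melanoma of all 14 fish, against 1228 of 9749 rows (12.6%).

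Within a fish, the melanoma was divided by the skin of the same animal, with a library at 0 set to 3 counts and no fold given where both libraries held 3 counts or fewer. Counts of 1 or 2 were left as they were, so a skin with 1 count gives a larger fold than a skin at 0. The median same-fish fold of a member had a median of 13.9 over members and ran from 3.95 to 213. For 122 members the fold was at least 8 in 7 or more fish, and 11 members had a median fold under 8. Folds were rarely large in every animal: 74 members were at least 2-fold higher in every fish with a fold, 25 at least 4-fold, and 2 at least 8-fold. Those 2 were ENSXMAT00000017197, from 8.60-fold in 11935d to 143-fold in 11963d, and ENSXMAT00000016375, from 10.6-fold in 11949f to 148-fold in 11935d. ENSXMAT00000017197 ran from 19.6 to 295 CPM in melanomas and from 0.599 to 11.1 CPM in skins. The folds of ENSXMAT00000016375, by contrast, divide by its 14 skin counts, 7 skins being at 0. Its 10.6-fold in 11949f is 5 melanoma counts over 1 skin count, so its place above 8-fold in every fish is not secure. ENSXMAT00000017769 came next, with a lowest fold of 7.92 in 11935d and a median of 179. At the other end, 15 members were lower in melanoma in at least 1 fish and 3 in 2 or more: ENSXMAT00000018061 and ENSXMAT00000001216, both described below, and ENSXMAT00000014000, singled out after its values were seen. The last was at 0.734-fold in 11935d and 0.821-fold in 11935f, with 0.659 and 5.47 CPM in skin. Several of the folds below 1 rest on few counts, and none was tested. ENSXMAT00000011471 was at 0.233-fold in 11949l, where its melanoma had 0.169 CPM, or 1 count against 4 in skin. It was at 57.0-fold in 11949g, at 33.0 CPM in melanoma over 3 counts in skin.

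Fish differed in the usual size of the fold. The median member fold was 2.45 in 11935d and 6.10 in 11935e, and lay between 9.91 in 11949f and 26.9 in 11949g in the other 12 fish. In 11935d, 17 of 127 members with a fold reached 8-fold and 7 were lower in melanoma than in skin. Those 7 folds lay between 0.587 and 0.979, at 0.659 to 4.28 CPM in skin and 0.484 to 4.03 CPM in melanoma. They thus rest on few counts and may be counting error, which was not tested. In 11949g, 123 of 130 reached 8-fold and 0 were lower. The smallest fold of a member fell in 11935d for 92 members and in 11935e for 6. By title number, the median over members of the geometric mean fold was 7.05 for the 3 fish of 11935, 17.6 for the 7 of 11949, 18.4 for the 1 of 11960 and 17.4 for the 3 of 11963. The remaining fish of that number, 11935f, had a median member fold of 18.5.

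**Figure D2:**
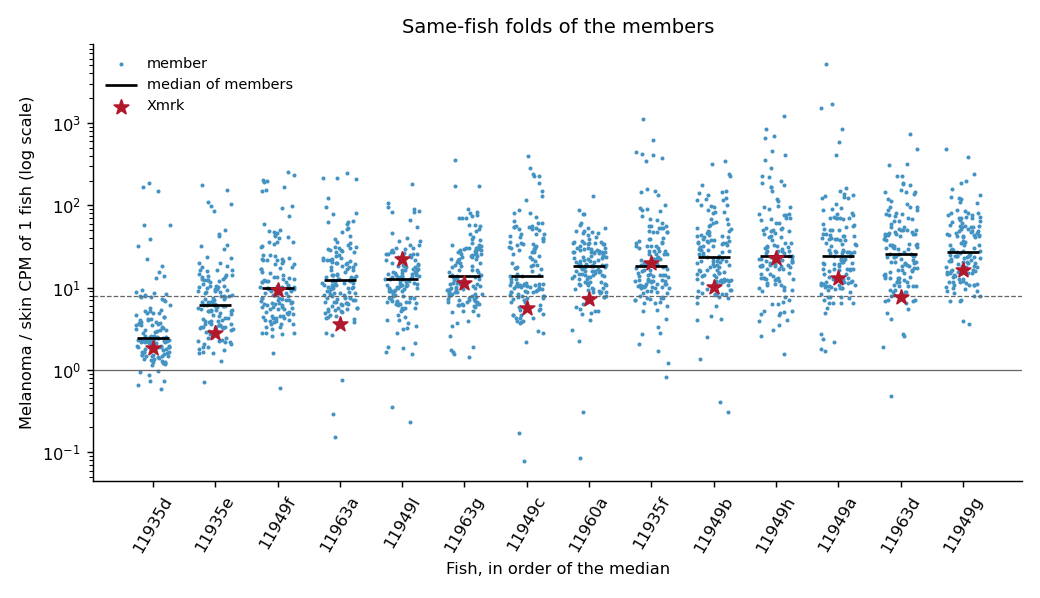
Melanoma CPM divided by skin CPM of the same fish (y axis, log scale) for each member (dots) in the 14 paired fish, in order of the median (bar); the star is Xmrk and the dashed line is 8-fold. The medians of 11935d and 11935e, 2.45 and 6.10, lie below 8-fold, and those of the other 12 fish lie above it.

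The melanomas of 11935d and 11935e stood apart from the other 14 in summed level and in Xmrk. Their members summed to 5863 and 9082 CPM, against 21448 CPM in the next lowest melanoma, 11949l, and their Xmrk levels, 139 and 192 CPM, were the lowest of the melanomas. Together they were the lowest melanoma for 99 of the 132 members. The summed level of the 59 skin-type rows was 779 CPM in 11935d, the highest melanoma, and 539 CPM in 11935e, below 607 CPM in 11963d and 673 CPM in 11963g; melanomas ran from 88.3 to 779 CPM (median 389) and skins from 3610 to 11711 CPM. Both libraries were deep, with 6201908 and 6977222 counts. Whether a different share of tumor cells in the dissected piece plays a part was not tested. Without these 2 melanomas the limits would take 162 rows, including all 132 members, and the median same-fish fold over members was 16.2.

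Melanomas varied more in the members than in the bulk of transcripts. The SD of log2(CPM + 0.5) over melanomas had a median of 1.26 over members, against 0.70 over the 9749 rows with a melanoma mean of at least 10 CPM. Over skins the medians were 0.79 and 0.69. These SDs are a description, since a row that is high in some melanomas is favoured by the rule. The 0.5 CPM added before taking logs also narrows the SD of rows near 0, and the members' skin means had a median of 3.30 CPM. Members also moved together: over the 16 melanomas the median correlation between 2 members was 0.46 across 8646 pairs, 83.9% of pairs had a positive correlation, and the first principal component carried 41.8% of the variance. Over the 9749 rows the median correlation between 2 rows was 0.09. Much of the shared movement lay in the melanomas of 11935d and 11935e, whose scores on that component were -27.1 and -19.3 with the next lowest at -9.26; without them the median correlation was 0.23 over members and 0.10 over rows. The first component was computed from these same members and melanomas, so correlations with it are a description. Of the 132 members, 96 correlated with it at 0.5 or more and 10 correlated negatively. The members closest to it were ENSXMAT00000009209, ENSXMAT00000019697 and ENSXMAT00000001194, with correlations of 0.97, 0.96 and 0.96. All points share the library and its depth.

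**Figure D3:**
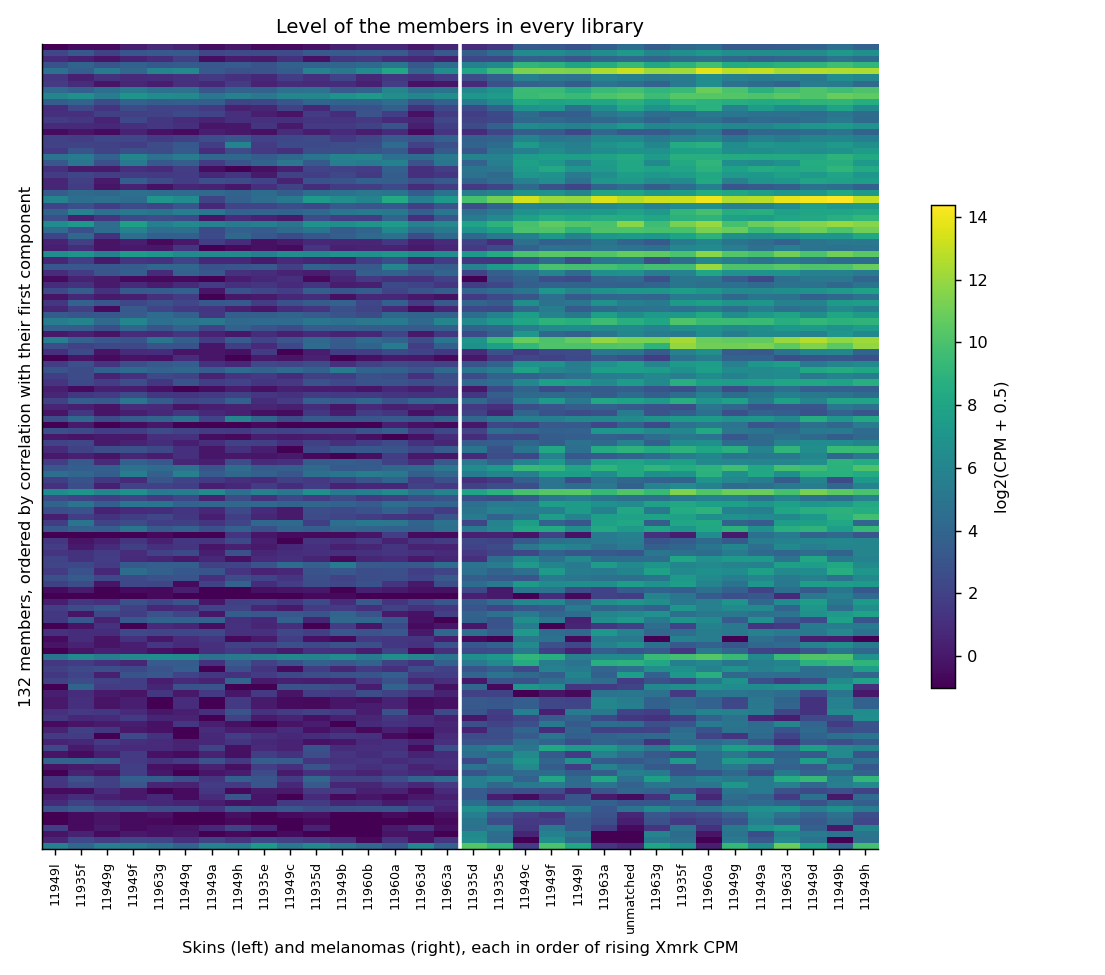
log2(CPM + 0.5) of the 132 members (rows, ordered by their correlation with the first principal component over melanomas) in 16 skins and 16 melanomas (columns, each tissue in order of rising Xmrk CPM). Melanomas 11935d and 11935e, the leftmost of the melanomas, are darker (lower) in most rows than the others, and the lowest rows hold members near 0 in some melanomas and high in others.

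The steadiest members were ENSXMAT00000011033, ENSXMAT00000001194 and ENSXMAT00000005259, with SDs over melanomas of 0.65, 0.73 and 0.77 on the log2 scale. ENSXMAT00000011033 ran from 4.51 to 23.4 CPM in melanomas (median 11.4) and from 0.322 to 3.39 CPM in skins (median 1.25), with no overlap. It was highest in 11935d, the melanoma where most members were lowest. ENSXMAT00000001194 ran from 4.51 to 28.3 CPM in melanomas and from 0.236 to 3.26 CPM in skins, also with no overlap, and was lowest in 11935d. ENSXMAT00000005259 ran from 12.9 to 72.9 CPM in melanomas and from 2.58 to 13.0 CPM in skins, so that the melanoma of 11935d fell just below the highest skin, that of 11963a.

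At the other end, 16 members had an SD of at least 2 on the log2 scale over melanomas, and 14 had over 25% of their melanoma sum in a single melanoma. The largest SD, 3.70, was that of ENSXMAT00000018061, which ran from 0.722 to 1855 CPM in melanomas (median 256) and from 8.39 to 167 CPM in skins (median 40.4). It was high in 11963d, 11935d and 11949f, at 1855, 1246 and 1024 CPM. It was lower in melanoma than in skin in 4 of 14 fish: the fold was 0.0776 in 11949c, where melanoma had 2.83 CPM, and 25.3 in 11963d. The melanomas with the least of it were 11960a, the unmatched melanoma, 11963a, 11949c and 11949b, at 0.722, 1.24, 2.14, 2.83 and 14.6 CPM.

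ENSXMAT00000001216, with an SD of 3.05, had no count in those same 5 melanomas, which allows up to 0.515 to 0.607 CPM, and 9.46 to 98.9 CPM in the other 11. Its skins ran from 0.153 to 4.94 CPM, so not all melanomas were above the skins. ENSXMAT00000002947 had 0.361, 0 and 0 CPM in 11960a, the unmatched melanoma and 11963a and 1.01 CPM in 11949c, but 28.2 CPM in 11949b and up to 82.2 CPM in 11935d. Its skins held 0 to 0.943 CPM. The 5 melanomas at the bottom for the first of these members, ENSXMAT00000018061, were also the 5 lowest in the summed level of the skin-type rows, at 88.3 to 164 CPM, with 234 CPM in the next, 11949a; what part this plays was not tested.

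ENSXMAT00000004849, with an SD of 2.94, also fell into levels far apart, but in other melanomas. It was under 1 CPM in 8 of them, namely 11935d, 11935e, 11949b, 11949d, 11949g, 11949h, 11949l and 11963g, and between 13.8 and 52.7 CPM in the other 8. Its skins tended to follow their own fish, on few counts. The paired fish with little in melanoma had 0.152 to 0.599 CPM in skin (1 to 4 counts). Those with more had 0.618 to 3.01 CPM (4 to 16 counts), so the 2 groups meet at 4 counts. Across 14 fish, log2 levels in skin and melanoma correlated at 0.84.

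**Figure D4:**
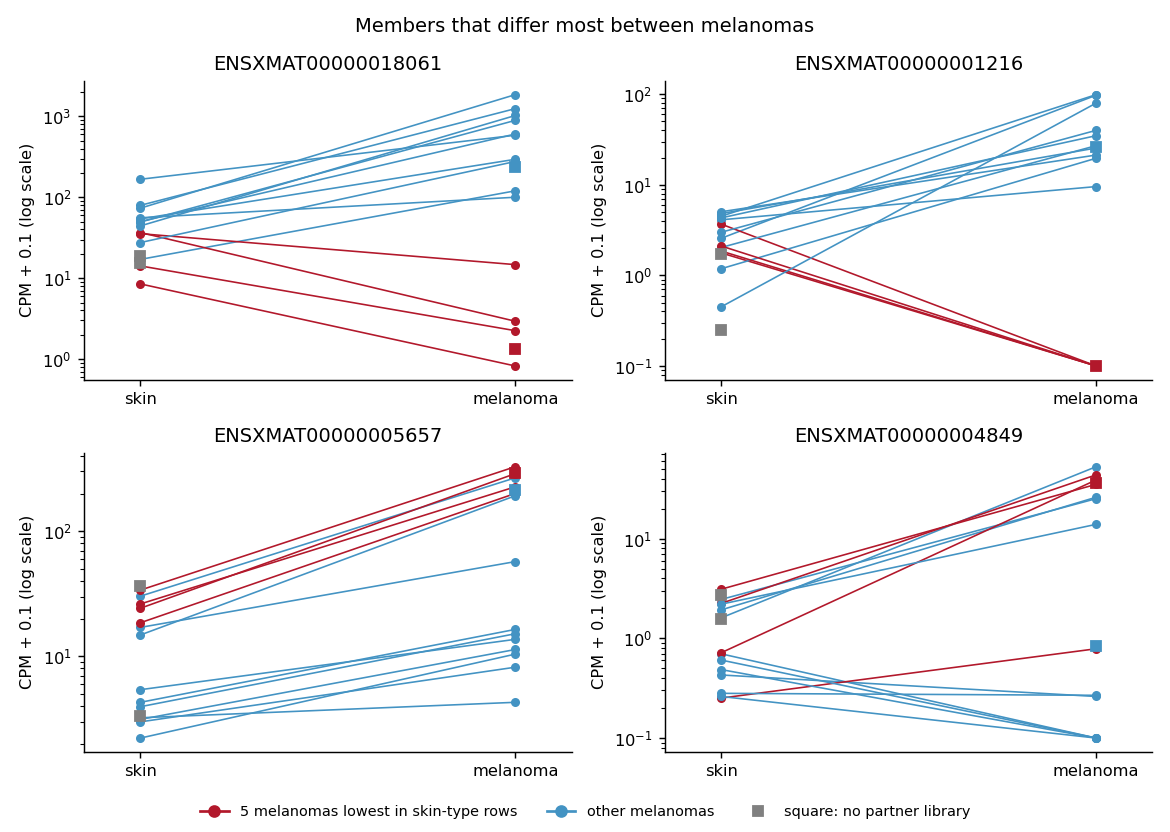
CPM + 0.1 (y axis, log scale) in skin and melanoma for 4 members; lines join the tissues of 1 fish, squares have no partner, and red marks the 5 melanomas with the lowest summed level of the 59 skin-type rows. ENSXMAT00000018061 and ENSXMAT00000001216 drop in the red melanomas, whereas ENSXMAT00000005657 and ENSXMAT00000004849 tend to be high or low in both tissues of a fish, with correlations of 0.96 and 0.84.

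The rule did not compare fish with each other, but a row can pass it through the melanomas of some fish. The share of members called for a difference between fish is thus not free of the rule. A difference between fish was tested with all fish coefficients jointly in a model with tissue and fish over 28 libraries (edgeR quasi-likelihood F-test, Benjamini-Hochberg adjustment over all rows). Of 127 members tested, 79 passed the threshold of 0.05, or 62.2%, against 79.1% of all 14711 rows, a difference that was not itself tested. Only 46 members reach the low-count filter in skins alone, so for most members this test draws mainly on the melanomas and says little about skin. The smallest p-value was that of ENSXMAT00000007990 (edgeR adjusted p = 7.74e-08). It ran from 0 to 54.7 CPM in melanomas (median 5.41) and from 0 to 5.07 CPM in skins (median 0.756). It was highest in 11960a in both tissues, and skin and melanoma correlated at 0.95 over 14 fish on the log2 scale. Such correlations are descriptions, since these members were picked for differing between fish.

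ENSXMAT00000004786 came next (edgeR adjusted p = 5.73e-07, correlation between the tissues of a fish 0.87). It lay between 4.51 and 185 CPM in melanomas and between 1.37 and 15.1 CPM in skins. ENSXMAT00000005657 followed (edgeR adjusted p = 3.55e-06, correlation 0.96), with 4.19 to 328 CPM in melanomas and 2.12 to 36.3 CPM in skins. In 7 paired fish its skin was at or below 5.32 CPM and its melanoma at or below 16.3 CPM, whereas in the other 7 its skin was at or above 14.7 CPM and its melanoma at or above 57.0 CPM. This member thus exceeded its fold limit through the melanomas of some fish: its median same-fish fold was 4.38, from 1.34 in 11935d to 13.0 in 11963d. Of the 16 members with an SD of at least 2, 11 could be tested for the fish term and 9 passed, beside 79.1% of all rows. They were picked for their spread over the same melanomas, so nothing is read from that count. ENSXMAT00000004849 did not reach the low-count filter, and without the filter its adjusted p was 5.45e-04 (edgeR). It was named for its spread over the same melanomas and held few skin counts, so nothing is read from that p. ENSXMAT00000018061 did not pass (edgeR adjusted p = 0.182). Under DESeq2 89 of 127 members passed against 85.6% of rows, and within the 7 paired fish of 11949, 60 of 125 against 56.2%; without the filter it was 83 of 132 against 62.7%.

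The relation to Xmrk was examined among melanomas, where the rule had not compared one melanoma with another. Members were chosen for a higher level in melanoma, and Xmrk was higher there too. Both could therefore fall together in a piece with fewer tumor cells, which was not tested. The share of members called is thus not free of the rule. The slope of each row on log2 Xmrk CPM was tested over the 16 melanomas (edgeR quasi-likelihood F-test, Benjamini-Hochberg adjustment over all rows, Xmrk left out). Of 119 members tested, 19 passed, or 16%, against 68 of 11820 rows (0.575%). All 19 slopes were positive, as were 62 of the 68 (0.525% of rows). The median slope was 1.06 over members and -0.01 over all rows, and 110 of the 119 members had a positive slope against 5761 of 11820 rows. A slope of 1 means that the member doubles when Xmrk doubles, and the 19 slopes that passed lay between 0.96 and 1.59.

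None of these calls remained without the 2 melanomas that stood apart. Leaving them out also takes away 2 libraries and the lowest Xmrk levels, and these effects were not told apart. 11935d and 11935e are also the 2 melanomas farthest from the median log2 Xmrk level. Without them, 0 of 121 members and 3 of 11918 rows (0.0252%) passed, and the median member slope was 0.47. At an unadjusted p under 0.05 were 19 of the members and 743 of the rows. All 19 slopes that had passed were still positive, 17 of them smaller, and the lowest adjusted p of a member was 0.166 (edgeR). Within the 8 melanomas of 11949 the median member slope was 0.55, and 0 of 115 members and 0 of 11387 rows passed. There 22 of the members and 528 of the rows had an unadjusted p under 0.05. With the title number as a covariate 1 member, ENSXMAT00000017731, passed (edgeR adjusted p = 0.0476), of 4 rows (0.0338%). The median member slope was 0.95, and 106 of 119 members had a positive slope. An unadjusted p under 0.05 was found for 77 of these members and 869 of 11820 rows. DESeq2 on all 16 melanomas called 85 members and 473 rows (4%). Correlations with Xmrk show the same shift: over the members tested, the median correlation was 0.72 over 16 melanomas and 0.40 over 14, and over the other 11701 rows it was 0.09 in both.

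The smallest p-value belonged to ENSXMAT00000010524. It ran from 15.3 to 175 CPM in melanomas (median 83.3) and from 3.77 to 15.8 CPM in skins (median 10.4), and 15 melanomas exceeded the highest skin. Its lowest melanoma was 11935d and its highest 11949h, which were also the lowest and highest for Xmrk. The slope on Xmrk was 1.197 (SE 0.16, edgeR adjusted p = 0.00175), and 0.93 (SE 0.23, edgeR adjusted p = 0.346) without 11935d and 11935e. Over 16 melanomas Pearson's r was 0.94 and Spearman's rho 0.90; r was 0.83 over 14 and 0.85 over the 8 of 11949. These correlations and those of the next 3 members are descriptions, since the members were named for their slopes in the same melanomas.

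ENSXMAT00000017731 had the lowest adjusted p of the members when the 2 melanomas were left out. It ran from 16.1 to 361 CPM in melanomas (median 94.1), lowest in 11935d and highest in 11949d, and from 3.77 to 62.6 CPM in skins (median 9.64). The slope was 1.35 (SE 0.19, edgeR adjusted p = 0.00292), and 1.61 (SE 0.31, edgeR adjusted p = 0.166) without 11935d and 11935e. Pearson's r was 0.90 and Spearman's rho 0.85 over 16 melanomas, and r was 0.81 over 14 and 0.89 within 11949. Its skins were highest in 11949h at 62.6 CPM, where the next skin had 27.0 CPM.

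ENSXMAT00000000706 had a slope of 1.44 (SE 0.22, edgeR adjusted p = 0.00659) and ENSXMAT00000013037 one of 1.11 (SE 0.18, edgeR adjusted p = 0.00786). Their r over 16 melanomas, 0.91 and 0.93, became 0.69 and 0.78 over 14. Of the 8 most abundant members, 4 passed: ENSXMAT00000004603 with a slope of 1.58 (edgeR adjusted p = 0.0180), ENSXMAT00000011250, ENSXMAT00000012105 and ENSXMAT00000008715. The 2 most abundant, ENSXMAT00000003338 and ENSXMAT00000004937, had slopes of 1.22 and 1.42 and did not pass (edgeR adjusted p = 0.0511 and 0.0911), nor did ENSXMAT00000011436 and ENSXMAT00000005183.

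**Figure D5:**
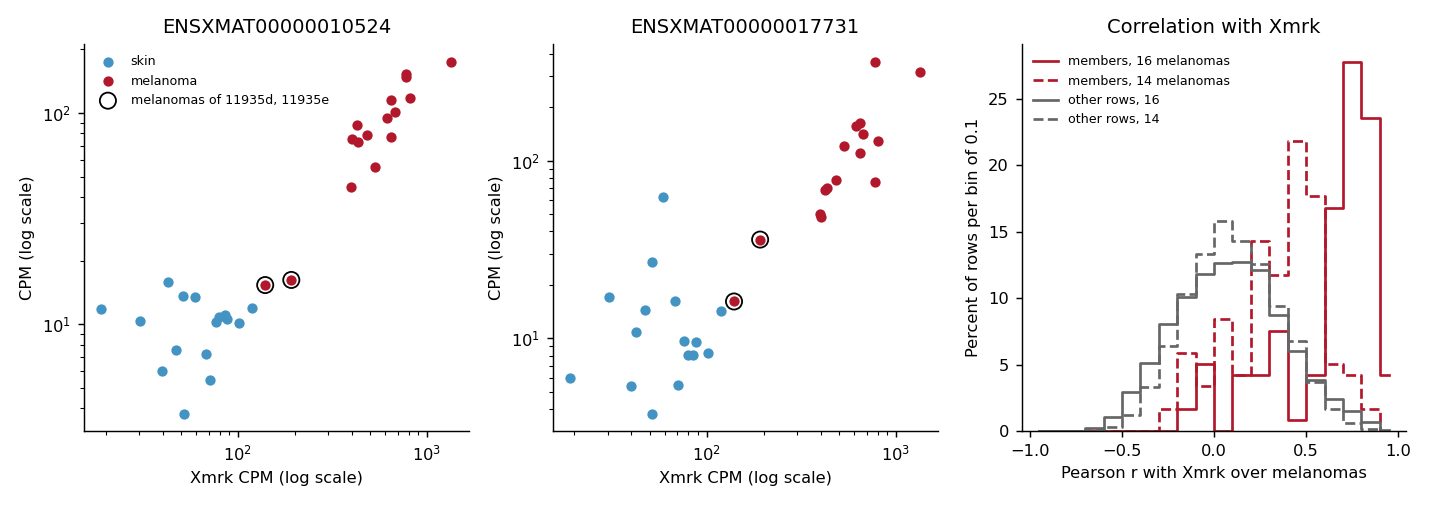
CPM of 2 members against Xmrk CPM (both axes log scale) in 16 skins (blue) and 16 melanomas (red, with 11935d and 11935e circled), and the distribution of Pearson's r with Xmrk over melanomas for members (red) and other tested rows (grey), with all 16 melanomas (solid) and without the circled ones (dashed). The median r of the members is 0.72 with and 0.40 without them; that of other rows is 0.09 in both cases.

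No member had a negative slope that passed. The negative slopes with the smallest p-values were those of ENSXMAT00000011033, at -0.20 (SE 0.19), ENSXMAT00000020415 at -0.33 (SE 0.42), ENSXMAT00000020413 at -0.31 (SE 0.44) and ENSXMAT00000016375 at -0.27 (SE 0.40), with edgeR adjusted p-values between 0.840 and 0.930. For ENSXMAT00000016375, whose second highest melanoma was 11935d at 48.7 CPM, the slope without 11935d and 11935e together was 1.75 (SE 1.14, edgeR adjusted p = 0.836). Its highest melanoma was 11949a at 72.9 CPM.

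Among skins, 0 of 46 members passed for a slope on Xmrk, against 676 of 11650 rows (5.8%). At an unadjusted p under 0.05 were 4 of these members and 2681 of the rows. Only 46 members reached the low-count filter there, since most have few skin reads. DESeq2 called 1 member, ENSXMAT00000002209 (adjusted p = 0.0341; 13.9% of rows). Without the filter (3.05% of rows) or with a stricter one (4.4%), edgeR called ENSXMAT00000001085, at adjusted p = 0.0188 and 0.0148; both were singled out after their values were seen. With both tissues in 1 model and the tissue as a term, 0 of 127 members passed, against 5 of 14711 rows (0.034%). The median member slope was 0.58, and 60 of the members and 1428 of the rows had an unadjusted p under 0.05. Without 11935d and 11935e the median member slope was 0.22, and 0 of 126 members and 2 of 14356 rows (0.0139%) passed. In that fit 12 of the members and 1207 of the rows had an unadjusted p under 0.05. Rows could enter these fits within tissue on the melanomas alone, and only 46 members reached the filter in skins. For most members they thus draw mainly on the melanomas. With the fish as a replicate block, so that the slope compares same-fish differences, 2 of 127 members passed against 6 of 14711 rows (0.0408%). These were ENSXMAT00000007300, with a slope of 1.25 (SE 0.12, edgeR adjusted p = 7.17e-05), and ENSXMAT00000003216, with a slope of 1.06 (SE 0.15, edgeR adjusted p = 0.0108), both singled out after their values were seen. Without 11935d and 11935e the same fit called 1 member of 126, ENSXMAT00000007300, with a slope of 0.99 (SE 0.13, edgeR adjusted p = 0.00561), against 3 of 14356 rows (0.0209%).

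ENSXMAT00000007300 averaged 194 CPM in melanoma and 4.79 CPM in skin; its same-fish fold ran from 2.60 in 11935d to 112 in 11949h, the fish with the smallest and the largest fold of Xmrk, 1.83 and 22.8. ENSXMAT00000003216 averaged 188 and 2.77 CPM, with folds from 7.21 in 11935d to 281 in 11949h. Skin counts per library were low, at 11 to 50 for ENSXMAT00000007300 and 3 to 47 for ENSXMAT00000003216.

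Some members may share reads. ENSXMAT00000017269 and ENSXMAT00000017271 are adjacent rows whose counts were equal in 25 of 32 libraries, with a correlation of 0.9996 over melanomas. ENSXMAT00000020413 and ENSXMAT00000020415 had equal counts in 11 libraries (correlation 0.998), and ENSXMAT00000016375 and ENSXMAT00000016378 in 10 (correlation 0.98). The sources used here do not say how reads that match several rows were counted, so each of these pairs may stand for 1 measurement.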

How the data were processed

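RNA-seq of skin and melanoma from BC1 hybrids was analysed from 1 deposited table of counts, in which the authors give whole numbers of reads per transcript row for 32 libraries (20499 rows, 30 of them with a symbol). GSNAP was the aligner, per the submitters' processing notes; for the build, annotation, counting program and handling of the parental alleles, nothing is stated in the sources used here. Per the labels' protocols, RNA was extracted with TRI Reagent and spin columns and all samples had an integrity score above 8. All columns were used (0 left unused). Identifiers are printed without their prefix XM_. CPM is the count divided by the library's total count, times 1000000.

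The members and lists were chosen with earlier results of these data known. The members named are the 8 highest in melanoma CPM, the 8 highest in ratio, the 4 with the smallest p for a positive and the 4 for a negative slope on Xmrk, the 3 largest and 3 smallest SDs over melanomas, the 3 highest and 3 lowest minimum same-fish folds, the 3 rows on either side of the 8-fold limit, the 3 smallest p-values of the fish term and the 3 closest to the first component. Of 191 genes in 13 lists of pathways and cell types, 0 matched a row with a symbol, so no list was used.

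Tests were fitted on all rows in R 4.3.3 with edgeR 4.0.16 (quasi-likelihood F-test, TMM, filterByExpr, Benjamini-Hochberg, threshold 0.05), and the procedure was tested on simulated data. The covariate was log2 Xmrk CPM (prior count 2). SDs and correlations used log2(CPM + 0.5). The titles name the fish, so skin and melanoma of 1 fish are paired, and replicates are different fish. Over 240 pairs of libraries of 1 tissue the lowest chi-square per degree of freedom was 33.3, so no library repeated another. Alternatives were RLE size factors, other low-count filters, DESeq2 1.42.0, 11949 alone, the title number as a covariate, a replicate block, other limits and scalings for membership, and leaving out libraries; leaving out 11935d and 11935e from the fits within tissue, the member count, the folds and the correlation between members was chosen after seeing the data. Figures were drawn with matplotlib 3.10.9.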

Additional observations from a re-analysis of the deposited data

Results flagged for a closer look

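Single libraries that stand away from the other libraries of their tissue were sought among the 8 skins and 8 melanomas of 11949, for Xmrk and the named members. Of 72 groups of 8, 14 had 1 library with a gap to the next above the 95% critical value of Dixon's test. Chance gives about 1 in 20, or 3.6, only for independent groups of normally distributed values. CPM need not be so distributed, and all 14 libraries stood at the high end. Some groups also hold members named for a large SD or that may share reads, so no excess over chance is read from the 14. In melanomas, 11949h was high in Xmrk, at 1343 CPM with the next at 809 CPM, and in ENSXMAT00000014004, at 147 with the next at 70.3 CPM. Melanoma 11949b was high in ENSXMAT00000011436, at 2211 against 1391 CPM, and in ENSXMAT00000009209, at 24.2 against 13.6 CPM. Melanoma 11949a was high in ENSXMAT00000016375 and ENSXMAT00000016378, which may share reads, at 72.9 and 49.2 CPM against 26.4 and 19.1 CPM. Melanoma 11949f, the shallowest library, was high in ENSXMAT00000001216, at 98.9 against 39.8 CPM.

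In skins, 11949f was high in ENSXMAT00000008715, at 212 against 102 CPM, and in ENSXMAT00000011250, at 56.6 against 24.8 CPM. Skin 11949q was high in ENSXMAT00000004937, at 74.8 against 38.6 CPM, and skin 11949l in ENSXMAT00000012105, at 50.3 against 12.3 CPM. Skin 11949h was high in ENSXMAT00000017731, at 62.6 against 27.0 CPM, and skin 11949a in ENSXMAT00000013037, at 2.83 against 1.61 CPM. Skin 11949b had 0.152 CPM of ENSXMAT00000017153, a single count, where the other 7 skins of 11949 had 0. Xmrk and the named members were also compared between the 3 title numbers with at least 3 paired fish, in 108 comparisons. In none was Xmrk or a named member higher in melanoma in every fish of one number and lower in every fish of another. Members were chosen for a higher mean in melanoma, so this search had little room to find a reversal among them. Nothing is read from its empty result. The single paired fish of 11960 was outside that search. ENSXMAT00000018061 was at 0.0860-fold there and at 3.50-fold to 15.7-fold in the 3 fish of 11935. ENSXMAT00000001216 was at 0.308-fold and 4.29-fold to 39.4-fold, a difference that was not tested. Folds also ranged widely within a number. ENSXMAT00000018061 went from 0.0776 in 11949c to 23.2 in 11949f, and from 0.152 in 11963a to 25.3 in 11963d. ENSXMAT00000001216 went from 0.170 to 22.5 and from 0.291 to 228 in the same fish. Its folds of 0.308, 0.170 and 0.291 come from melanomas at 0 set to 3 counts, so lower values are possible. Its 228-fold divides by 2 skin counts.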

How the results depend on the processing

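Members that passed for a slope on Xmrk in melanomas numbered 19, beside 0.575% of all rows. The number was 13 to 25 under RLE size factors, other low-count filters and omission of the shallowest or the unmatched melanoma. In those fits 0.358% to 0.778% of all rows passed. DESeq2 gave 85 (4% of rows) and the title number as a covariate 1 (0.0338%). The 11949 melanomas alone gave 0 (0%), as did omission of the 2 melanomas farthest in Xmrk (0.0252%). Fewer melanomas enter the last 2 fits. With the title number as a covariate, 2 melanomas were each alone in their group and added nothing to the slope. Otherwise the cause was not tested. In skins the count was 0 (5.8% of rows in the main fit). It was 1 under no filter (3.05%), a stricter filter (4.4%) or DESeq2 (13.9%). In the fit within tissue it was 0 with no fish term (0.034% of rows in the main fit). With the replicate block it was 2 (0.0408%), and 1 with the block and without 11935d and 11935e (0.0209%). The fish pair the tissues by title; the block was run for this fit alone. For the fish term 79 members passed (62.2%), beside 79.1% of all rows. Under the alternatives 60 to 89 members passed (48% to 70.1%), beside 56.2% to 85.6% of all rows. A limit of 4-fold would give 284 members and one of 16-fold 61, by construction; other scalings, summaries and sets of libraries gave 112 to 162, of which 104 to 132 were shared with the 132. The median same-fish fold was 13.9 with a prior count of 0.5 in place of the floor and 16.2 without 11935d and 11935e, where the median correlation between members went from 0.46 to 0.23. Low skin counts limit the folds of the 34 members with a skin at 0, and the skin fits to 46 members.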
